A study of Mus musculus with 16 samples.

Results

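The comparison of tumour-matched with tumour-mismatched DNA set 8 of the 16 libraries of the series, those in which dendritic cells had been given DNA from the same kind of cell as the tumour, against the other 8, in which the DNA came from the other kind. The members were chosen by their titles alone: a library was matched when its DNA source, MSI (microsatellite instability) or CIN (chromosomal instability), was also its tumour type. The 4 matched groups were MSI tumours with free MSI DNA, MSI tumours with MSI micronuclei, CIN tumours with free CIN DNA and CIN tumours with CIN micronuclei. The 4 mismatched groups were MSI tumours with free CIN DNA, MSI tumours with CIN micronuclei, CIN tumours with free MSI DNA and CIN tumours with MSI micronuclei. Each group had 2 libraries, named below by tumour, DNA source, DNA form and replicate number.

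All 8 groups shared the rest of the treatment. MC38 cells, a mouse colon carcinoma line, were grown as the MSI or the CIN line in the colon wall of C57BL/6 mice, and every mouse received dendritic cells grown from bone marrow. These cells had been exposed to 2 µg of DNA for 30 min with a lipid transfection reagent and were given into the abdominal cavity on days 1, 6 and 12. Tumours were taken on day 15 and RNA of 3 biological replicates was combined. The labels do not say whether each library is a pool of its own, so p-values measure only how libraries vary, which may in part be technical. There was 1 line per tumour type, no library from mice given dendritic cells without DNA was analysed here, and the sources used here give no age for the mice.

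DNA in the cytosol is bound by the enzyme cGAS, whose product activates STING and, through the kinase TBK1, the transcription of type I interferon genes. Interferon in turn drives interferon-stimulated genes, the machinery that loads peptides on MHC class I, and chemokines such as Cxcl9 and Cxcl10 that attract T cells. Dendritic cells of the cDC1 kind carry this signal to CD8 T cells in tumours of mice. Whether DNA from a tumour's own kind of cell acts differently on the tumour than DNA from another kind is the question that this pairing of libraries addresses. Set out over tumour type and DNA source, it is the interaction of these 2 factors.

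Sequencing depth lay between 11880546 and 17937501 counts with matched DNA and between 11561955 and 16959226 counts with mismatched DNA (n = 8 each, exact permutation test of both tails on the means, p = 0.992). The number of genes with a count was 23364 ± 931 with matched and 22527 ± 1104 with mismatched DNA (n = 8 each, exact permutation p = 0.128, adjusted over 3 measures 0.384). The share of mitochondrial counts was 2.06 ± 0.54% with matched and 2.08 ± 0.79% with mismatched DNA (exact permutation p = 0.978, adjusted 0.992). Among genes that separate the lines, Fst, which encodes follistatin, had 33.4 to 81.9 CPM (the gene's counts per fixed number of counts in the library, with TMM scaling) in MSI and 2.04 to 6.56 CPM in CIN tumours. The DNA source of a library cannot be checked from gene counts. Libraries differed widely in transcripts of skeletal muscle and of colon epithelium. Skeletal muscle genes stood high in 5 libraries, of which 1 was matched, CIN tumour CIN free 2. The 4 mismatched ones were both CIN tumours with MSI micronuclei, MSI tumour CIN micronuclei 1 and CIN tumour MSI free 2. The library CIN tumour MSI micronuclei 1 also had the lowest mean of colon epithelium genes of all 16.

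No gene passed the test between matched and mismatched libraries. Of 18777 genes tested with edgeR's quasi-likelihood test, with tumour type and DNA form in the model, 0 passed a Benjamini-Hochberg adjusted p of 0.05, and the smallest adjusted p was 0.999. At an unadjusted p under 0.05 there were 138 genes with a higher level in matched libraries, 0.735% of those tested, and 134 with a lower one, 0.714%, together 272 or 1.45%. This share lay below 0.05, the share that such a threshold marks on average when no gene differs. The total number of genes was 517 without MSI tumour CIN micronuclei 2, 181 without CIN tumour MSI micronuclei 1 and 171 without CIN tumour CIN micronuclei 2. DESeq2, a second test of the same counts, called 1 gene. A positive log2 fold change of matched over mismatched was found for 44.2% of all genes and a negative one for 55.8%, with a median of -0.02. With DESeq2's size factors 49.8% were positive. The common coefficient of variation between libraries was 0.392. All fold changes below are log2 of matched over mismatched with their standard error, and none of them passed the adjusted threshold in edgeR.

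Of the protein-coding genes with a higher mean in matched libraries in all 4 combinations of tumour type and DNA form, the 12 with the smallest p are named here, a choice by rank among genes that did not pass. Their log2 fold changes lay between 0.35 and 0.80. Cilp, a matrix protein of cartilage, had 10.7 to 32.6 CPM (median 22.2) in matched and 6.37 to 20.7 CPM (median 12.0) in mismatched libraries. Its log2 fold change was 0.80 ± 0.25, with a 95% interval of 0.28 to 1.33. CIN tumours with micronuclei showed the widest gap, at 25.3 and 32.6 CPM with matched and 6.37 and 9.25 CPM with mismatched DNA. Ccdc80, a secreted matrix protein, averaged 49.99 ± 16.6 CPM in matched and 33.5 ± 5.74 CPM in mismatched libraries (SD, n = 8 each), and its highest values were 73.0 and 77.6 CPM in the pair of CIN tumours with CIN micronuclei. The ranges of matched and mismatched libraries overlapped for both genes. The others were the chemokine Cxcl14, the collagen gene Col15a1, the cadherin Dchs1, the complement gene C3, the vessel genes Tie1, Cldn5 and Podxl, the membrane protein gene Itm2a, and Napb and Kif5c, which serve vesicle fusion and transport along microtubules in neurons. For genes of 1 cell type in bulk tissue, fewer cells and less RNA per cell cannot be told apart.

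Cxcl14, a chemokine made by epithelium and fibroblasts, was the member of these 12 with the smallest p. Its matched values were 10.8 and 15.2 CPM in MSI tumours with free DNA, 12.8 and 18.3 in MSI tumours with micronuclei, 16.5 and 12.7 in CIN tumours with free DNA, and 14.8 and 18.0 in CIN tumours with micronuclei. The mismatched values in the same order were 7.57 and 11.7, 10.6 and 10.1, 9.25 and 9.60, and 15.0 and 12.8 CPM. The groups overlapped between 10.8 and 15.0 CPM. The log2 fold change was 0.47 ± 0.13, with a 95% interval of 0.19 to 0.74. The gene lies on chromosome 13 from 56288643 to 56296551 (GRCm38).

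The 12 genes named on the other side had log2 fold changes of -0.81 to -0.18. S100a4, a calcium-binding protein of motile tumour and stromal cells, had 13.5 to 27.9 CPM (median 17.6) in matched and 14.8 to 43.7 CPM (median 29.9) in mismatched libraries, a log2 fold change of -0.59 ± 0.21 with an interval of -1.03 to -0.14. Mphosph6, a cofactor of the RNA exosome, averaged 19.9 ± 1.27 CPM in matched and 23.7 ± 1.83 CPM in mismatched libraries (SD, n = 8 each). Lsm6, a component of the U6 small nuclear ribonucleoprotein, averaged 38.3 ± 3.93 CPM in matched and 45.5 ± 5.50 CPM in mismatched libraries. Rpp40, a subunit of ribonuclease P, averaged 8.87 ± 0.73 CPM in matched and 11.0 ± 1.33 CPM in mismatched libraries. The remaining genes were Arhgef10l, Mfap1a, Gm11361, Trabd2b, Spryd3, Wnt10a, Mdga1 and Dpf1. The ligand gene Wnt10a followed the tumour line: matched libraries had 0.216 to 0.738 CPM in MSI and 8.37 to 12.7 CPM in CIN tumours, against 0.533 to 1.93 CPM in MSI and 10.05 to 17.7 CPM in CIN tumours of mismatched libraries.

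**Figure D1:**
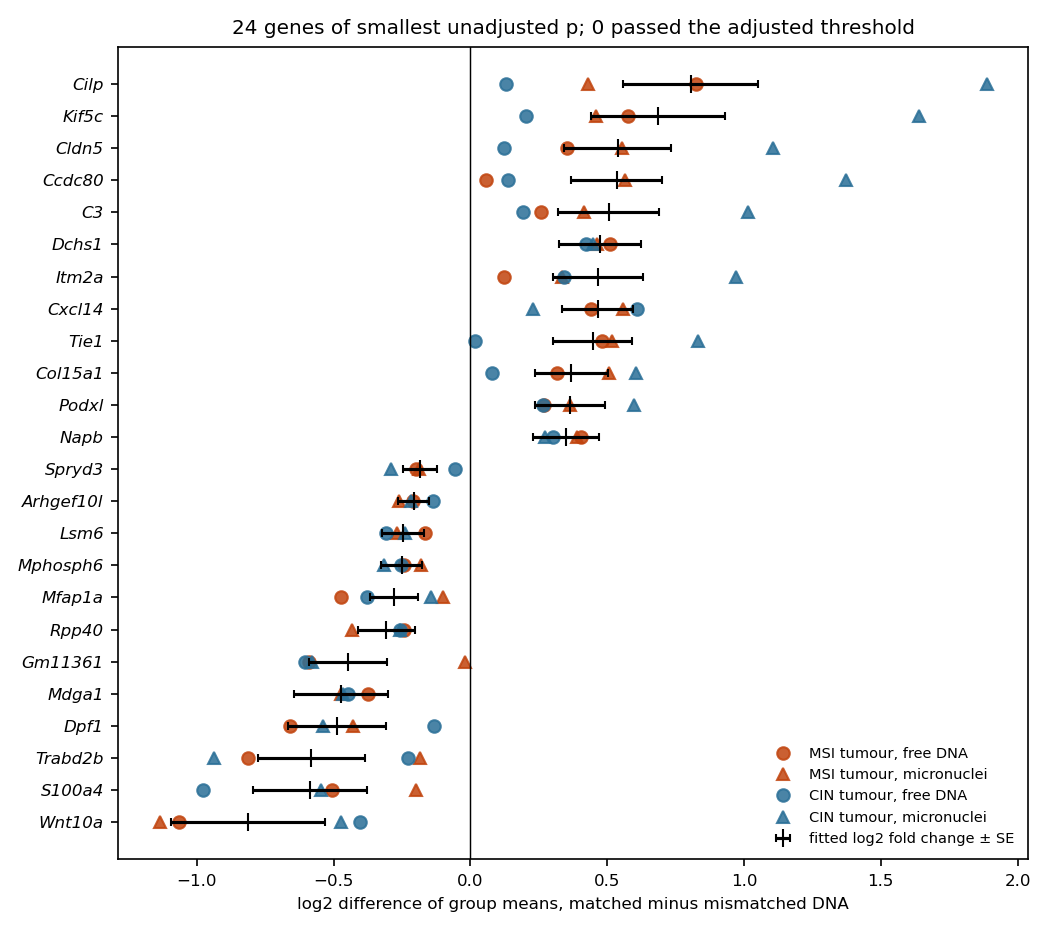
Log2 difference of matched minus mismatched group means (horizontal axis) for the 24 named genes, with 1 symbol per combination of tumour type (colour) and DNA form (symbol) and the fitted log2 fold change ± SE as a black bar. The fitted values run from 0.80 for Cilp to -0.81 for Wnt10a, and all 4 combinations lie on the same side of 0 for each gene because they were chosen so.

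Only 1 of 18777 genes (0.00533%) had ranges of 8 and 8 libraries that did not overlap. This was Scgb2b15, a secretoglobin of the androgen-binding protein family, chosen after its values were seen. It had 2 to 16 counts in matched libraries, 57 in all, and 0 or 1 count in mismatched libraries, 2 in all, of which 6 were at 0. It was the gene called by DESeq2, with an adjusted p of 0.0496 by its Wald test and Benjamini-Hochberg adjustment. Its family has near-identical copies among which reads can be split, so its count is uncertain.

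Interferon-stimulated genes had nearly the same mean level in both sets. The promoters of Ifit1 and Isg15, antiviral effectors used as readouts of type I interferon, are shown because they carry the element through which interferon acts on such genes, and that of Acta1, the skeletal muscle actin gene, because its transcripts set libraries apart in this comparison. Capitals mark matches to GAAA, any 2 bases and GAAA, the core of the interferon-stimulated response element, on either strand in the first 2 (those of Isg15 overlap each other), and to CANNTG, the E-box of muscle transcription factors, in the third. The sequences are RefSeq's for GRCm38.p6, from 250 bases before to 50 after the start of the gene.
Ifit1, chr19:34640639-34640938, plus strand: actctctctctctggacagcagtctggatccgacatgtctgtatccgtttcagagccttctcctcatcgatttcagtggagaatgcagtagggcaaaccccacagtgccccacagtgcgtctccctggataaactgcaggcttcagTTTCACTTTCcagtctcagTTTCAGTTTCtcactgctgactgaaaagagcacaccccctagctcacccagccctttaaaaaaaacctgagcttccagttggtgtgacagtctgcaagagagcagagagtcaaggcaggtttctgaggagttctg
Isg15, chr4:156200769-156201068, minus strand: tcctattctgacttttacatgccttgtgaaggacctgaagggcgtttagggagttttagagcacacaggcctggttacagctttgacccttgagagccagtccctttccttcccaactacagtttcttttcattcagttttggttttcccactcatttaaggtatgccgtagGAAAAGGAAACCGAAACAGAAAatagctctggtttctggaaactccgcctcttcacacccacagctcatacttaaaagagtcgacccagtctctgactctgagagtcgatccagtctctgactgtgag
Acta1, chr8:123894726-123895025, minus strand: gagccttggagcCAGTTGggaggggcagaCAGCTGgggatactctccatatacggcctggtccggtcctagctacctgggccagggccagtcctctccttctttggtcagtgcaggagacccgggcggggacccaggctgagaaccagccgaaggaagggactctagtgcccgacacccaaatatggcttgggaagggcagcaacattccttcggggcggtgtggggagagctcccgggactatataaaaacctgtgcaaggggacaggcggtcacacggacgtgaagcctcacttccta

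The interferon element core was found in 943 of 27025 RefSeq promoters of this length (3.49%) and in 14 of the 24 promoters matched to the interferon list. The E-box was found in 72.1% of all promoters and in 12 of 16 of the skeletal muscle list. A match describes letters in this window and not binding of a factor.

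Ifit1 had 29.9 to 50.1 CPM (median 37.6) in matched and 21.5 to 76.1 CPM (median 35.9) in mismatched libraries. The matched range lay inside the mismatched one, and the log2 fold change was 0.01 ± 0.18, with a 95% interval of -0.38 to 0.39. Isg15 had 18.7 to 31.4 CPM (median 27.7) in matched and 20.3 to 45.4 CPM (median 25.4) in mismatched libraries, a log2 fold change of -0.13 ± 0.15 with an interval of -0.45 to 0.18. Of the 34 genes of the type I interferon response, 18 had a positive and 16 a negative fold change, beside 44.2% positive over all genes, with a median of 0.01, and 23 were positive with DESeq2's size factors. None had an unadjusted p under 0.05, the smallest being 0.288 by edgeR, and the 95% interval lay within ±1 for 33 of the 34. The mean log2 CPM over the list was 5.19 ± 0.18 with matched and 5.18 ± 0.38 with mismatched DNA (SD, n = 8 each). Interferon beta itself (Ifnb1) had 7 counts over all 16 libraries and was not tested.

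The same 34 genes stood on opposite sides by DNA form and by tumour type. With free DNA 6 of the 34 were positive, with a median of -0.15, beside 43% of all genes, and with micronuclei 28, with a median of 0.13, beside 46.5%. In MSI tumours 1 of 34 was positive, with a median of -0.24, beside 37.3% of all genes. In CIN tumours 32 of 34 were positive, with a median of 0.26, beside 50.9% of all genes. Oas3, which makes the second messenger that activates ribonuclease L, had 34.8 to 55.0 CPM with matched and 47.0 to 98.2 CPM with mismatched DNA in MSI tumours, and 42.8 to 52.8 CPM with matched and 33.6 to 46.2 CPM with mismatched DNA in CIN tumours. Its log2 fold change was -0.54 ± 0.15 in MSI and 0.27 ± 0.15 in CIN tumours. The difference between them was -0.81 ± 0.21, with a 95% interval of -1.28 to -0.35, and it did not pass (edgeR, Benjamini-Hochberg adjusted p = 1). For Ifit1 the difference was -0.84 ± 0.29, with an interval of -1.48 to -0.21. In both tumour types the side with the higher interferon values was the one given CIN DNA: a difference of the matched effect between tumour types is the effect of DNA source, on a doubled scale, and the readings cannot be told apart in this design. Over the 16 libraries the interferon score had a Pearson correlation of -0.507 with the skeletal muscle score and of 0.405 with the colon epithelium score, as a description of libraries that share a scaling. The part of either tissue in this pattern was not tested. Without the 5 libraries rich in skeletal muscle, 9 of the 34 genes were positive over both tumour types, with a median of -0.13.

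**Figure D2:**
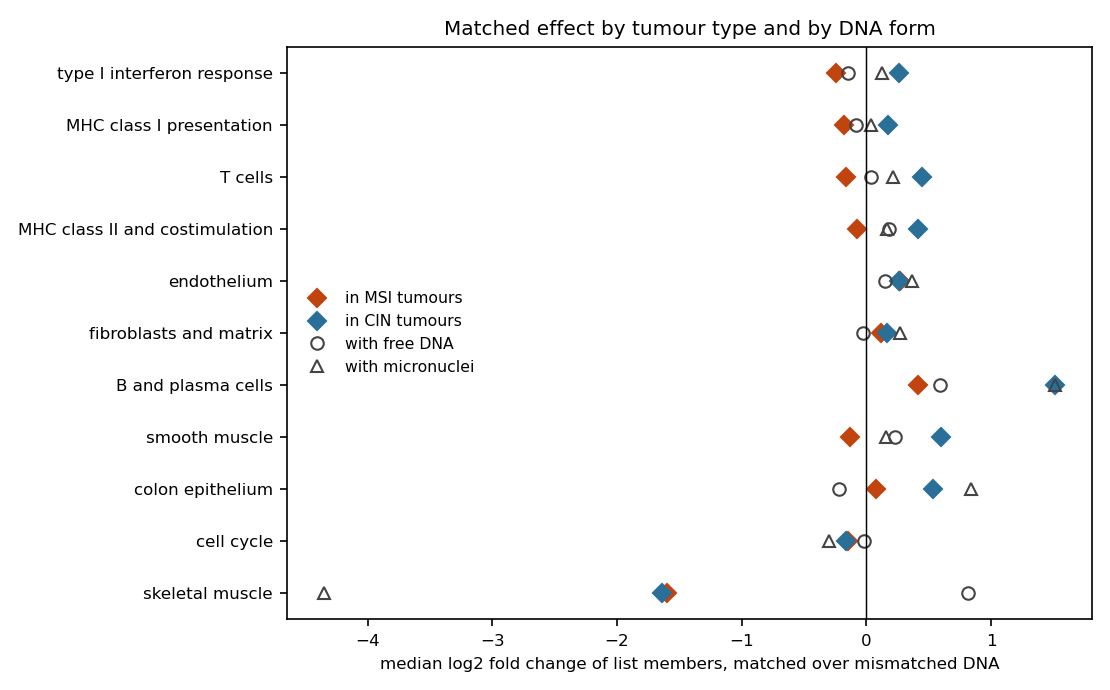
Median log2 fold change of matched over mismatched libraries for selected gene lists, given separately by tumour type and by DNA form. The type I interferon list lies at -0.24 in MSI and 0.26 in CIN tumours, and the skeletal muscle list at 0.81 with free DNA and -4.35 with micronuclei.

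No gene of the sensing pathway itself passed. Of 19 tested genes of cytosolic DNA sensing 9 were positive, with a median of -0.02 that turned to 0.01 with DESeq2's size factors. Mb21d1, which encodes cGAS, averaged 7.92 ± 1.02 CPM in matched and 8.91 ± 2.41 CPM in mismatched libraries (SD, n = 8 each). Tmem173, which encodes STING, averaged 55.3 ± 7.81 CPM in matched and 56.1 ± 9.93 CPM in mismatched libraries, with a 95% interval of the log2 fold change of -0.24 to 0.20. Tbk1, the kinase downstream of STING, averaged 55.8 ± 6.32 CPM in matched and 60.8 ± 10.8 CPM in mismatched libraries and had the smallest unadjusted p, 0.122 by edgeR, of 29 tested genes that were to be reported whatever their result, of which 11 were positive. The 10 genes of RNA sensing had a median of 0.02 with 6 positive. The 23 genes of the interferon gamma response had a median of 0.01 with 14 positive. In MSI tumours 2 were positive (median -0.20), beside 37.3% of all genes. In CIN tumours 22 were positive (median 0.24), beside 50.9% of all genes. As for type I interferon, this split cannot be told apart from an effect of DNA source.

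Antigen presentation on MHC class I had 7 of 20 genes positive, a median of -0.04 and every 95% interval within ±1. B2m, the light chain of class I, averaged 1766 ± 224 CPM in matched and 1842 ± 302 CPM in mismatched libraries, and H2-K1, a class I heavy chain, 1958 ± 324 CPM in matched and 2011 ± 239 CPM in mismatched libraries (SD, n = 8 each). The MHC class II and costimulation list, which holds the genes by which dendritic cells, macrophages and B cells present to CD4 T cells, had 15 of 16 genes positive and a median of 0.20. In MSI tumours 6 of the 16 were positive (median -0.08), beside 37.3% of all genes. In CIN tumours 15 were positive (median 0.42), beside 50.9% of all genes. The difference between tumour types cannot be told apart from an effect of DNA source here either. H2-DMb2, a chain of the H2-M molecule that loads peptides on class II, had 2.92 to 18.9 CPM (median 11.7) in matched and 3.27 to 15.3 CPM (median 6.21) in mismatched libraries, a log2 fold change of 0.86 ± 0.34 with an interval of 0.14 to 1.59. Its matched minimum was in CIN tumour CIN free 2, below every mismatched library. H2-Ab1, the beta chain of the main class II molecule, averaged 311 ± 70.7 CPM in matched and 273 ± 55.4 CPM in mismatched libraries, with an interval of -0.11 to 0.53. H2-DMb2, H2-Oa and H2-Ob, which are known from B cells as well, had the 3 largest fold changes of the list.

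Conventional dendritic cell markers formed the list closest by name to the injected cells. Whether the injected cells expressed these markers was not tested. Of 19 tested markers 14 were positive, with a median of 0.18, and none had an unadjusted p under 0.05. Itgax, the integrin CD11c that macrophages carry as well, averaged 24.9 ± 6.55 CPM in matched and 20.2 ± 4.05 CPM in mismatched libraries (SD, n = 8 each). Clec9a, a receptor of cDC1 cells for dead-cell actin, had 0.985 to 3.10 CPM (median 1.71) in matched and 0.558 to 2.47 CPM (median 1.73) in mismatched libraries. Xcr1, the cDC1 chemokine receptor, had 0.494 to 2.36 CPM in matched and 1.24 to 2.61 CPM in mismatched libraries. Batf3, the transcription factor of the same cells, had 0.868 to 2.68 CPM in matched and 0.0885 to 1.72 CPM in mismatched libraries, the lowest in CIN tumour MSI micronuclei 1. Whether these transcripts came from injected or resident cells was not tested.

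No T cell gene passed. Cd8a, the alpha chain of the CD8 coreceptor, had 12.7 to 26.5 CPM (median 22.5) in matched and 12.8 to 28.1 CPM (median 22.1) in mismatched libraries, and a log2 fold change of -0.02 ± 0.16 with an interval of -0.37 to 0.32. The ranges almost coincided. Of 22 T cell genes 17 were positive with a median of 0.14. In MSI tumours 1 was positive (median -0.16), beside 37.3% of all genes. In CIN tumours 21 were positive (median 0.45), beside 50.9% of all genes. The side with the higher T cell values was thus mostly the one given CIN DNA in both tumour types. This cannot be told apart from an effect of DNA source. Cytotoxic and NK cell genes had a median of -0.12 with 7 of 20 positive. Gzmb, the granzyme of killer cells, averaged 21.8 ± 8.95 CPM in matched and 23.8 ± 7.29 CPM in mismatched libraries, and Ifng, the cytokine interferon gamma, averaged 2.57 ± 1.26 CPM in matched and 3.42 ± 0.97 CPM in mismatched libraries. The chemokine genes Cxcl9 (265 ± 123 CPM in matched and 270 ± 150 CPM in mismatched libraries) and Cxcl10 (207 ± 60.7 CPM in matched and 215 ± 83.4 CPM in mismatched libraries) had intervals of -0.26 to 0.37 and -0.39 to 0.38. Cd274, which encodes PD-L1, averaged 61.5 ± 13.6 CPM in matched and 64.2 ± 12.7 CPM in mismatched libraries, and Foxp3, the factor of regulatory T cells, 1.16 ± 0.63 CPM in matched and 1.14 ± 0.71 CPM in mismatched libraries.

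**Figure D3:**
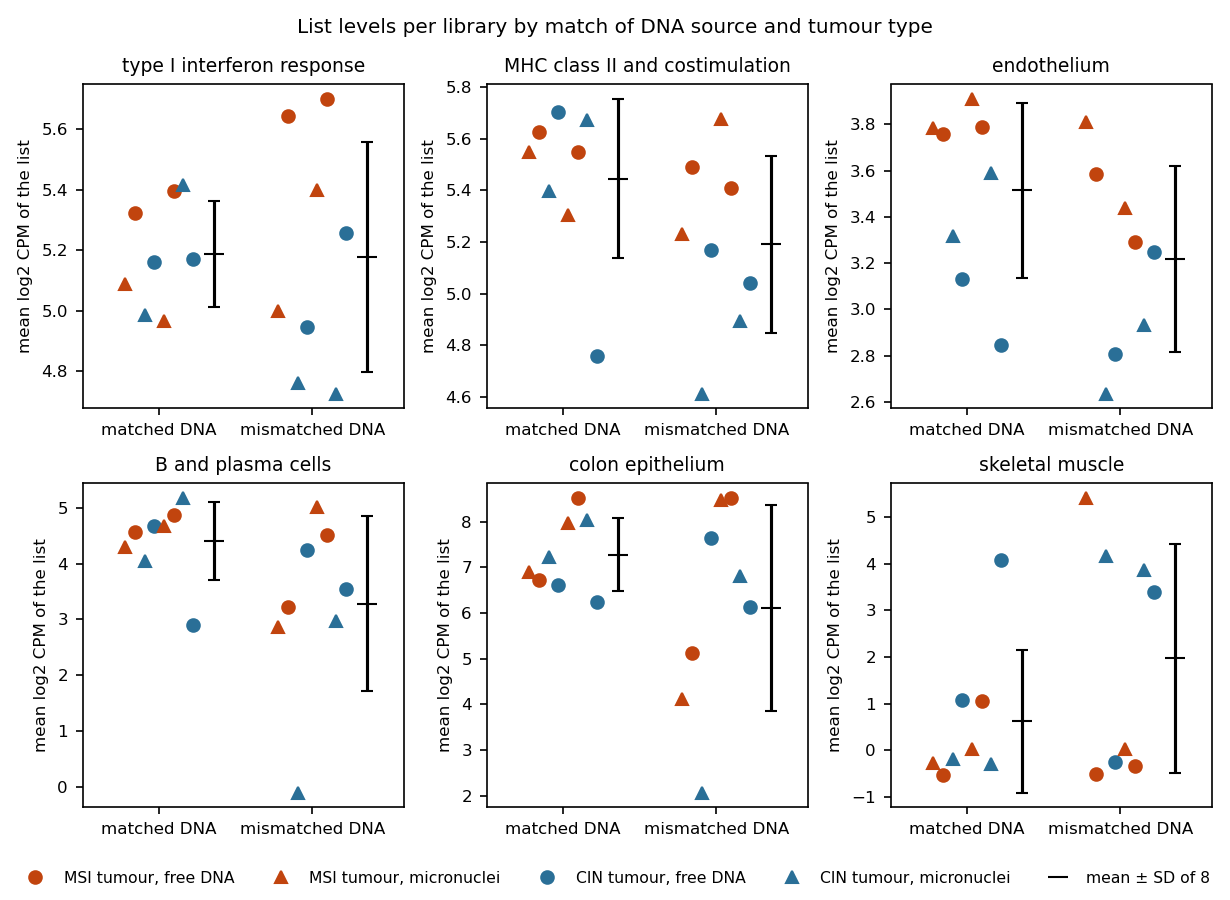
Mean log2 CPM of gene lists in each of the 16 libraries, matched libraries left of mismatched ones, with colour for the tumour type, symbol for the DNA form and a bar for the mean ± SD of 8 libraries. The type I interferon score averages 5.19 with matched and 5.18 with mismatched DNA, and the skeletal muscle score reaches 4.07 in 1 matched library and 3.39 to 5.40 in 4 mismatched ones.

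Genes of B and plasma cells were the list with the largest positive median, 0.81, with 17 of 17 tested genes positive and 6 of them higher in all 4 combinations, beside 4.56% of all genes. None passed. Ighg2b, a heavy chain constant gene of class-switched antibody on chromosome 12 from 113302965 to 113307933, had matched values of 18.4 and 11.3 CPM in MSI tumours with free DNA, 4.61 and 11.3 in MSI tumours with micronuclei, 16.9 and 0.868 in CIN tumours with free DNA, and 4.65 and 15.4 in CIN tumours with micronuclei. The mismatched values in the same order were 2.01 and 5.53, 2.55 and 6.00, 7.76 and 6.52, and 0 and 1.44 CPM. In MSI tumours with free DNA and in CIN tumours with micronuclei both matched values were above both mismatched ones, while CIN tumour CIN free 2 had the lowest matched value. The log2 fold change was 1.48 ± 0.66, with an interval of 0.06 to 2.90. Ighg2c, its relative that shares much of its sequence, had 0.744 to 16.1 CPM (median 2.09) in matched and 0.239 to 5.09 CPM (median 0.846) in mismatched libraries.

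Immunoglobulin variable segments, which were no part of the list, had 93 of 104 tested positive, beside 44.2% of all genes, with a median of 0.98. Of the segments, 18 had an unadjusted p under 0.05 with a higher level in matched libraries, beside 0.735% of all genes, and 26 were higher in all 4 combinations, beside 4.56%. Their summed level ran from 24.8 to 237 CPM (median 85.2) in matched and from 0.531 to 160 CPM (median 49.4) in mismatched libraries. Segments share reads and come from the same cells, so they are not independent, and single segments are uncertain. T cell receptor segments had 6 of 7 positive and a median of 0.23.

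Colon epithelium transcripts moved with the B and plasma cell score. Its Pearson correlation with the colon epithelium score over the 16 libraries was 0.902, a description of libraries that share the same scaling. The colon epithelium list had 25 of 25 genes positive in the comparison, with a median of 0.33, and its score averaged 7.28 ± 0.81 with matched and 6.11 ± 2.26 with mismatched DNA (SD, n = 8 each). By DNA form 4 of its 25 genes were positive with free DNA (median -0.22) and 25 with micronuclei (median 0.84). Epcam, an adhesion molecule of epithelium, had 224 to 1259 CPM (median 454) in matched and 12.7 to 1366 CPM (median 305) in mismatched libraries. The lowest library on both scores was CIN tumour MSI micronuclei 1, at -0.10 for B and plasma cells and 2.06 for colon epithelium. Without this library the mismatched mean rose from 6.11 to 6.69 for colon epithelium. For B and plasma cells it rose from 3.28 to 3.77, beside 4.40 with matched DNA. With the colon epithelium score as a covariate the median of the B and plasma cell list was 0.47, with 15 of 17 positive. Without the 5 libraries rich in skeletal muscle the B and plasma cell median was 0.18, with 12 of 17 positive, and the colon epithelium list then had a median of -0.36 with 2 of 25 positive.

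**Figure D4:**
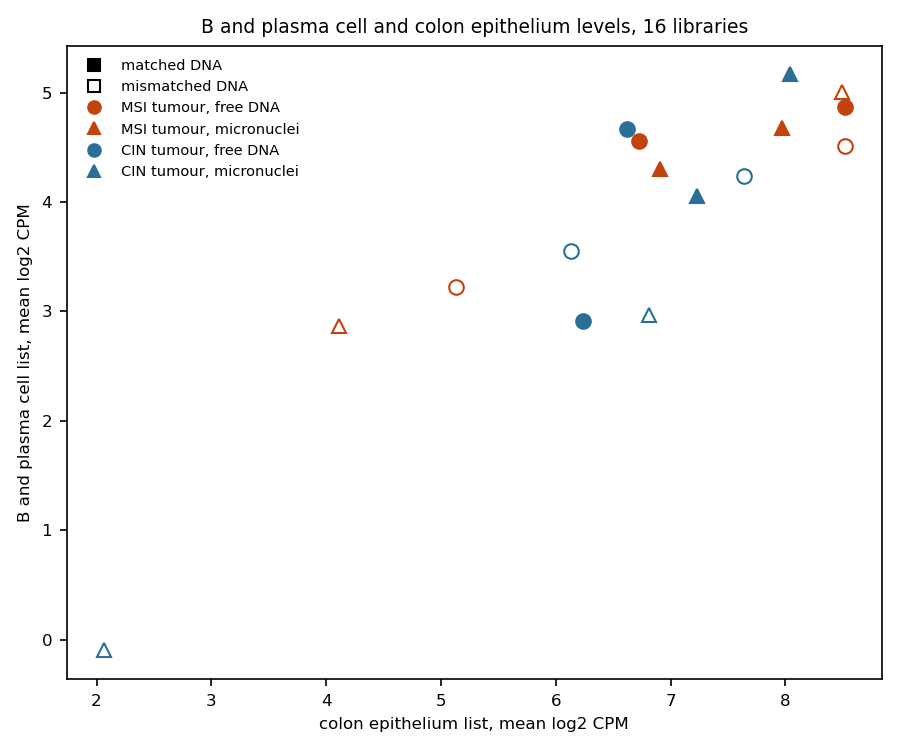
Mean log2 CPM of the B and plasma cell list (vertical axis) against that of the colon epithelium list (horizontal axis), 1 point per library, filled for matched and open for mismatched DNA. The points run along a diagonal with Pearson r = 0.902, and CIN tumour MSI micronuclei 1 lies lowest at 2.06 and -0.10.

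All 16 tested endothelial genes were positive, with a median of 0.26. Of these, 5 had an unadjusted p under 0.05, beside 0.735% of all genes. In all 4 combinations 7 were higher with matched DNA, beside 4.56% of all genes. None passed. Tie1, a receptor tyrosine kinase of blood vessels on chromosome 4 from 118471191 to 118490061, had matched values of 19.0 and 18.8 CPM in MSI tumours with free DNA, 22.1 and 18.5 in MSI tumours with micronuclei, 11.4 and 8.25 in CIN tumours with free DNA, and 11.7 and 13.2 in CIN tumours with micronuclei. The mismatched values in the same order were 15.98 and 11.4, 15.6 and 12.6, 9.92 and 9.24, and 5.13 and 9.33 CPM. Within MSI tumours every matched value was above every mismatched one, whereas in CIN tumours the values overlapped. The log2 fold change was 0.45 ± 0.15, with an interval of 0.14 to 0.76. Cldn5, a tight junction protein of vessels, had 3.10 to 9.44 CPM (median 5.90) in matched and 2.39 to 6.91 CPM (median 4.17) in mismatched libraries. The median of the list was 0.27 in MSI tumours and 0.26 in CIN tumours, and 0.15 with free DNA and 0.37 with micronuclei. Its score over the libraries averaged 3.52 ± 0.38 in matched and 3.22 ± 0.40 in mismatched libraries (SD, n = 8 each), and the ranges overlapped. Over the 30 alternatives, which left out libraries or altered the model or the scaling, the median ran from 0.19 to 0.40. It had a Pearson correlation of 0.327 with the colon epithelium score.

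Fibroblast and matrix genes had 14 of 18 positive and a median of 0.14. Some matrix genes are named by the separate comparisons by tumour type and DNA form, again by rank. Tnc, the matrix glycoprotein tenascin C, had 67.3 to 145 CPM (median 120) in matched and 33.8 to 114 CPM (median 68.3) in mismatched libraries, a log2 fold change of 0.78 ± 0.24 with an interval of 0.26 to 1.30. With micronuclei its 4 matched values of 115 to 145 CPM lay above all 4 mismatched values of 33.8 to 77.0 CPM, and with free DNA the values overlapped. Col5a2, a fibrillar collagen gene, had a log2 fold change of 0.71 ± 0.12 with micronuclei, with an interval of 0.44 to 0.98, and 0.07 ± 0.12 with free DNA. Slit3, a secreted guidance cue, had 1.40 ± 0.29 with micronuclei and 0.29 ± 0.29 with free DNA, and Ccdc80 had 0.95 ± 0.17 with micronuclei and 0.11 ± 0.16 with free DNA. The difference between free DNA and micronuclei was -0.64 ± 0.17 for Col5a2 and -0.85 ± 0.23 for Ccdc80 (edgeR, Benjamini-Hochberg adjusted p = 1 for each). Most mismatched libraries with micronuclei were rich in skeletal muscle transcripts, and no matched library with micronuclei was. The comparisons by DNA form were not refitted without these libraries together or with the skeletal muscle score alone. The part of this tissue in the matrix values with micronuclei was not tested. Ccl11, the eosinophil chemokine eotaxin, had 2.57 to 12.0 CPM (median 8.05) in matched and 0.265 to 9.20 CPM (median 3.39) in mismatched libraries, a log2 fold change of 1.09 ± 0.37.

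Skeletal muscle genes had the largest negative median, -1.69, with 0 of 18 positive, and 4 of the 5 libraries high in them were mismatched. Acta1 had matched values of 2.52 to 9.05 CPM in 7 libraries and 96.9 CPM in CIN tumour CIN free 2. Its mismatched values were 0.776 and 15.2 CPM in MSI tumours with free DNA, 213 and 5.94 in MSI tumours with micronuclei, 2.31 and 51.1 in CIN tumours with free DNA, and 84.4 and 58.0 in CIN tumours with micronuclei. The log2 fold change was -2.14 ± 1.54, with an interval of -5.45 to 1.16. The median of the list was -4.35 with micronuclei, where 3 of the 4 mismatched libraries were among the 5 rich ones, and 0.81 with free DNA. The list's score stood on both sides in replicates of the same group, at 5.40 and 0.03 in MSI tumours with CIN micronuclei. Without those 5 libraries the median was 0.82 with 14 of 18 positive.

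The remaining lists cover other cell types and cell programmes. Macrophage and monocyte genes had 3 of 22 positive and a median of -0.09, with 5 lower in all 4 combinations, beside 4.9% of all genes. Neutrophil genes had 3 of 12 positive (median -0.13) and mast cell genes 9 of 11 positive (median 0.38). Cell cycle genes had 2 of 20 positive (median -0.16), genes of hypoxia and glycolysis 2 of 20 (median -0.13), mismatch repair genes 2 of 12 (median -0.10) and immediate early genes 2 of 18 (median -0.11). Genes of p53 and DNA damage had 6 of 16 positive (median -0.07), cytokines and chemokines 11 of 24 (median -0.08), checkpoint and exhaustion genes 9 of 14 (median 0.06) and regulatory T cell genes 4 of 9 (median -0.03). Adipocyte genes had 6 of 7 positive (median 0.39), erythroid genes 4 of 5 (median 0.21) and liver genes 3 of 3 (median 0.48). Smooth muscle genes had 15 of 18 positive (median 0.27), genes of enteric neurons and glia 13 of 15 (median 0.48) and mesothelial genes 9 of 9 (median 0.54). The scores of smooth muscle and of enteric neurons and glia had Pearson correlations of 0.943 and 0.958 with that of colon epithelium over the 16 libraries. Without the 5 libraries rich in skeletal muscle, the medians of the macrophage, mast cell, cell cycle, mismatch repair, smooth muscle and enteric neuron lists changed sign.

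**Figure D5:**
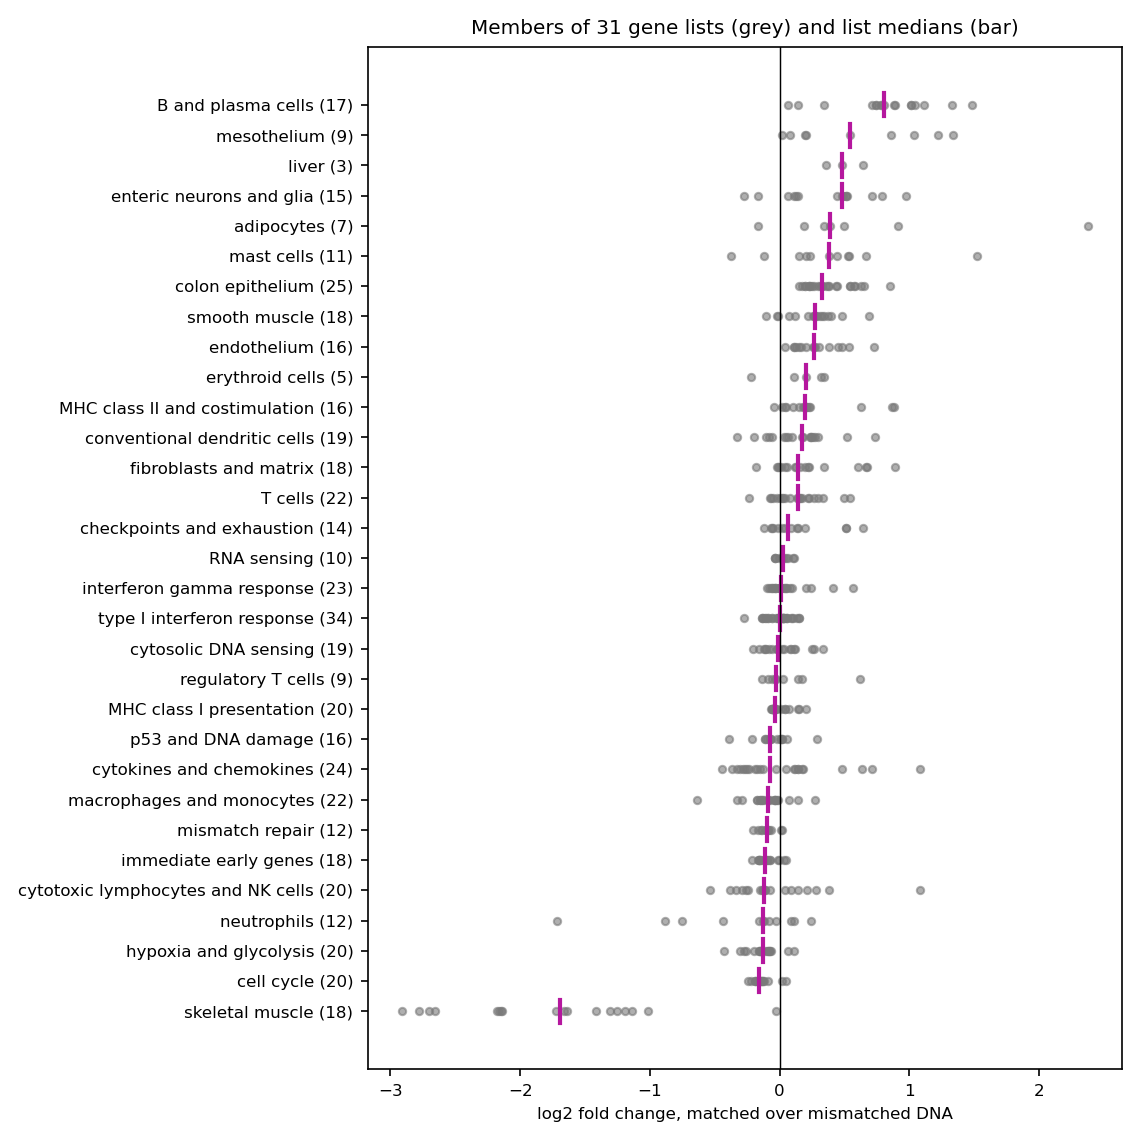
Log2 fold change of matched over mismatched libraries for each tested member (grey points) of 31 gene lists, with the list median as a bar and the number of tested members in brackets. Medians run from 0.81 for B and plasma cells to -1.69 for skeletal muscle, and the type I interferon list lies at 0.01.

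Taken by tumour type and by DNA form, the comparison again gave no gene past the adjusted threshold in edgeR. In MSI tumours 63 genes had an unadjusted p under 0.05 with a higher level in matched libraries (0.336%) and 88 with a lower one (0.469%), and DESeq2 called 0. In CIN tumours there were 245 (1.3%) and 70 (0.373%), and DESeq2 called 1, the ephrin receptor gene Epha3. With free DNA there were 38 (0.202%) and 39 (0.208%), and DESeq2 called 0. With micronuclei there were 270 (1.44%) and 217 (1.16%), and DESeq2 called 19, of which 7 were higher and 12 lower with matched DNA. Of the 12 lower ones, 8 were on the skeletal muscle list, and the others were Mybpc2, Trdn and Smyd1, which are also known from striated muscle, and Nrn1. Those higher were Epha3, with a log2 fold change of 3.05 in DESeq2, Col5a2, Ccdc80, Slit3, Serpine2, Ccl11 and Bdkrb1. The test of the difference between free DNA and micronuclei gave 124 (0.66%) and 136 (0.724%) at an unadjusted p under 0.05 and 0 adjusted. The test of the difference between tumour types gave 43 (0.229%) and 166 (0.884%), and 0 adjusted.

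Spread over the 8 libraries of a set was larger with mismatched than with matched DNA for most genes. Each set spans both tumour types, DNA sources and DNA forms, so group differences enter this SD beside the scatter of replicates. An effect of DNA source alone can make the 2 SDs differ, and these parts were not separated. The SD of log2 CPM was larger in the mismatched set for 14625 of 18777 genes (77.9%) and for 24 of 31 list scores (77.4%). Without CIN tumour MSI micronuclei 1 these were 14117 genes (75.2%) and 18 list scores (58.1%). For Ifit1 the SD was 6.84 CPM with matched and 18.1 CPM with mismatched DNA, and for the colon epithelium score 0.81 with matched and 2.26 with mismatched DNA. Genes share libraries and are not independent, so no test was made of this count, and 4 of the 5 libraries rich in skeletal muscle transcripts were in the mismatched set.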

How the data were processed

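RNA of 16 tumour libraries was measured by poly-A selected sequencing. Counts for 54532 genes, as deposited by the authors, were made with fastp, HISAT2 2.0.5 and featureCounts 1.5.0-p3, per the submitters' processing notes. The notes name GRCm39, but of 54409 identifiers also in GENCODE M21 the coordinates of 53499 were identical to its GRCm38 ones, and GRCm38 is used in the text. Whether counting used strand was not stated in these sources, so reads of a gene and its antisense neighbour may be mixed. Another 4 columns matched no sample and were not used, and the FPKM table was not used. Every count belonged to a gene.

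From the counts, edgeR 4.0.16 in R 4.3.3 was run with TMM scaling (factors 0.964 to 1.046), filterByExpr by the 8 groups (18777 genes), quasi-likelihood fits in robust form and a Benjamini-Hochberg threshold of 0.05. The main model held tumour type, DNA form and match, and a model of 8 group means gave the comparisons within a tumour type or DNA form. The script was tested on simulated data. CPM use library sizes multiplied by these factors, and list scores are means of log2 CPM with a prior count of 2. Single library measures were compared over all 1296 arrangements within tumour type and DNA form. Replicates differed beyond sampling noise in each group (chi-square per degree of freedom 19.9 to 221) and were kept as separate samples.

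Named genes are the 12 and 12 protein-coding genes with the smallest p among those whose average log2 CPM reached 1 and whose sign was shared by all 4 combinations, since none passed, up to 4 and 4 of each other comparison, up to 2 of each list, and 30 fixed genes, of which 29 were tested. The comparison, the 31 lists (520 genes, all in the table) and the rules were chosen with earlier results of these data known. Alternatives were DESeq2 1.42.0 and its size factors, other filters, models with DNA source, replicate number, colon epithelium or skeletal muscle scores, each library or 5 libraries left out, and each replicate number alone.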

Additional observations from a re-analysis of the deposited data

Results flagged for a closer look

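Of 174 sets of 8 libraries tried, each a measure, list score or named gene in the matched or the mismatched libraries, 9 had a library farther from the rest than Dixon's 95% value for 8 samples allows, and chance alone marks about 1 in 20. In the matched set CIN tumour CIN free 2 had the lowest MHC class II score, 4.76 against 5.30 in the nearest library. It also had the highest skeletal muscle score, 4.07 against 1.07, an Acta1 level of 96.9 CPM against 9.05 CPM, and the lowest Kif5c level, 2.61 CPM against 4.59 CPM. MSI tumour MSI free 2 had the highest share of mitochondrial counts in the matched set, 3.19% against 2.36%.

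In the mismatched set the library CIN tumour MSI micronuclei 1 had the lowest B and plasma cell score, -0.096 against 2.87, and the lowest score of checkpoint and exhaustion genes, 2.22 against 2.93. It had 0.885 CPM of Kif5c, against 2.61 CPM in the nearest library, and 0.0885 CPM of Batf3, against 0.933 CPM. This library was also the one with the lowest colon epithelium score. The cause of these gaps was not tested.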

How the results depend on the processing

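Over 30 alternatives the number of genes past the adjusted threshold in the main comparison stayed at 0 in edgeR. The comparisons by tumour type and DNA form were not refitted under some of these. Those were the strict filter, DNA source, a single tissue score, 1 replicate number alone and the 5 muscle-rich libraries left out. Under the other settings they stayed at 0 in edgeR, except with the colon epithelium and skeletal muscle scores together as covariates. There 1 gene passed in MSI tumours, 1 with free DNA and 1 in the difference between DNA forms. That gene was the pseudogene Ces2d-ps each time, with 472 counts in matched and 16 in mismatched libraries. With each library left out in turn the count ranged from 0 to 0 for every comparison. DESeq2 called 1 gene in the main comparison, 1 in CIN tumours, 19 with micronuclei and 5 in the difference between DNA forms, the last all of skeletal muscle (Myh4, Myh1, Mylpf, Tnni2 and Myl1). The cause of the difference between the 2 tests was not tested. The number at an unadjusted p under 0.05 was 272 in the main fit. It was 371 with DESeq2, 613 without a filter, 177 with a strict one, 591 with the colon epithelium score as a covariate, 190 with the skeletal muscle score and 558 with both, and 262 without the 5 libraries rich in skeletal muscle. It was 654 with replicate 1 alone, 167 with replicate 2 alone, and 171 (without CIN tumour CIN micronuclei 2) to 517 (without MSI tumour CIN micronuclei 2) with a library left out.

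Libraries of the same number deviated from their group means with correlations of -0.539 to 0.796 between groups, so the numbers were not taken to pair the samples over the whole set. Among the MSI tumour groups they were 0.396 to 0.796. A replicate block gave 0 genes in every comparison, with 412 at an unadjusted p under 0.05 in the main one, and a block within each tumour type gave 0, with 541.

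The medians of the B and plasma cell (0.18 to 1.64), endothelium (0.19 to 0.40), MHC class II (0.05 to 0.32), dendritic cell (0.04 to 0.21), adipocyte (0.12 to 0.75) and hypoxia lists (-0.17 to -0.06) kept their sign over the alternatives. That of skeletal muscle ran from -2.81 to 0.82 and that of colon epithelium from -0.36 to 1.71. Without the 5 libraries rich in skeletal muscle, 29 of 142 named genes and 15 of 32 medians changed sign. With 8 libraries a side, small differences of single genes were not detectable. In lists that varied widely between libraries, larger ones could go undetected as well. There the 95% interval lay within ±1 for 2 of 17 B and plasma cell, 0 of 25 colon epithelium and 1 of 18 skeletal muscle genes.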
